A study of Mus musculus with 4 samples.

Results

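The suppressors of cytokine signalling (SOCS proteins) and their relative CIS are inhibitors that cytokines induce and that then act back on the same cytokine receptors. Of this family, 7 genes were followed: Socs1, Socs2, Socs3, Socs5, Socs6, Socs7 and Cish, which encodes CIS. All probe sets that the platform annotation assigns to 1 of these symbols alone were taken, which gave 13 of 22690 probe sets on the array. Socs3 had 3 of them, Socs2, Socs5, Socs6 and Socs7 had 2 each, and Socs1 and Cish had 1 each.

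The signals come from untreated T cells of the spleen of C57BL/6 mice, sorted by flow cytometry after staining for CD4, CD8 and CD44, an adhesion receptor that is low on naive and high on antigen-experienced T cells. There were 4 groups: CD4 and CD8 cells with the label Gfi1 knockout, and the same subsets with the label wildtype. Each group has 1 Affymetrix MOE430A_2.0 array with the RNA of 2 mice pooled, so no spread between animals can be measured. All 4 samples are described as CD44 low; the titles of the knockout samples end in N and those of the wildtype samples in M, letters that the labels do not explain. Neither the knockout allele nor the age of the mice is stated there.

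A cytokine receptor activates Janus kinases (JAKs), which phosphorylate STAT transcription factors, and STATs switch on SOCS genes among their targets. SOCS proteins bind phosphorylated tyrosines through an SH2 domain, and through their SOCS box they recruit elongins and cullin 5, a ubiquitin ligase that marks bound proteins for degradation. In T cells Socs1 is known for holding back interferon gamma and IL-2 family signals, Socs3 for acting on gp130, the signalling chain of the IL-6 receptor, and Cish and Socs2 as targets of STAT5. Gfi1 is a zinc finger protein that represses genes in blood cells.

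Some signals went against the sample descriptions or set arrays apart. Gfi1 was not lower on the arrays labelled knockout (2891 against 2272 in CD4 and 2447 against 1158 in CD8 cells), and the labels do not say whether its probe set lies in the deleted part. Cd44 read 196 and 252 on the arrays labelled knockout and 8136 and 5740.3 on those labelled wildtype. Of 14 memory and effector T cell genes, 13 were at least 2-fold lower on the array labelled knockout in each subset. The exception, Prf1, was 4.38-fold higher on the knockout array in CD4 cells and 1.79-fold lower in CD8 cells. The summed signal of the 14 genes was 4332 in CD4 and 14669.9 in CD8 cells labelled knockout, against 76074 and 78577 in those labelled wildtype. On the array labelled wildtype CD8, 11 of 11 dendritic cell genes lay above the floor, a signal of 93.9 below which values were not ranked, with a summed signal of 49453 against 2766 to 5116 on the other arrays. Naive T cell genes were at least 2-fold higher on the array labelled knockout for 5 of 8 in CD4 and 1 of 8 in CD8 cells. Natural killer cell genes were at least 2-fold lower for 3 of 5 and 6 of 7. Over all genes above the floor, 2.06% were at least 2-fold higher on the knockout array and 7.73% lower in CD4 cells. In CD8 cells these shares were 1.21% and 4.29%. Among subset and T cell markers Cd3e read 6193 to 7468, and the CD8 arrays had Cd4 (1419696_at) below the floor as the CD4 arrays had Cd8a. Cd8b1 read 970.5 and 312 on the knockout and wildtype arrays of CD4 cells against 25715 and 26222 in CD8 cells. Runx3, listed as a CD8 marker, read 132 in CD8 and 179 in CD4 cells labelled wildtype, but 162 and 101 in those labelled knockout. Trat1, a T cell gene, was 4.16-fold higher on the knockout array in CD8 cells, and limma, the fit described below, called Cd5 lower on the arrays labelled knockout (adjusted p = 0.0484). Genotype is therefore given as labelled, every difference between the labelled genotypes below goes along with the difference in Cd44 and memory genes, and their part in it was not tested.

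The stretches with STAT letters near the start sites of Socs3 and Cish are shown because these genes are known STAT targets and carry the largest differences below together with Socs2. STAT dimers prefer the palindrome TTCNNNGAA, which reads alike on both strands. RefSeq windows (GRCm38.p6) from 250 bases before to 50 bases after the annotated start were available for Socs1, Socs3 and Cish. The Socs3 window holds 1 match, the Cish window 2 and the Socs1 window 0, whereas 8.30% of all 32851 windows of 300 bases hold at least 1. The stretches below give each match in capitals with up to 10 bases on each side, 5′ to 3′ on the strand of the gene; the Cish matches lie next to each other, so each appears in part in the flank of the other. The Socs3 stretch lies at chr11:117969502-117969530 on the minus strand, and its match begins at position -154 from the start site. The Cish stretches lie at chr9:107296649-107296677 and chr9:107296660-107296688 on the plus strand, and their matches begin at positions 1 and 12.
Socs3: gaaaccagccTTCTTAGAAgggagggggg
Cish, first match: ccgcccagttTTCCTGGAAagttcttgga
Cish, second match: tcctggaaagTTCTTGGAAatctgtcaaa
The letters AATC, the core of the sequence that Gfi1 binds, occur on either strand 1 time in the Socs1 window, 3 times in the Cish window and 0 times in the Socs3 window, and 73.1% of all windows hold them. A match is a description of these letters and not a binding site measured here.

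Socs3, the inhibitor of IL-6 family signals, was at least 2-fold higher on the array labelled knockout in both subsets. Its probe set 1416576_at read 5449.7 on the array labelled knockout CD4, 1079 on wildtype CD4, 4089.7 on knockout CD8 and 1171 on wildtype CD8. Both arrays labelled knockout were above both labelled wildtype, and the arrays labelled wildtype were close to each other. Probe set 1455899_x_at read 14757 and 2971 on the knockout and wildtype arrays of CD4 cells and 10557 and 3229 on those of CD8 cells. Probe set 1456212_x_at read 7158 and 1719 in CD4 and 5237 and 1994 in CD8 cells. In CD4 cells the folds were thus 5.05, 4.97 and 4.17, and in CD8 cells they were 3.49, 3.27 and 2.63, so all 3 probe sets gave the same direction and order of the arrays. On the log2 scale the differences were 2.34, 2.31 and 2.06 in CD4 and 1.80, 1.71 and 1.39 in CD8 cells.

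Within a single pair of arrays, the only spread that can be set beside such a difference is the disagreement between probe sets of one gene. Over 2759 genes with several probe sets that passed the floor on every array, the log2 differences of 2 probe sets of a gene lay a median of 0.24 apart in CD4 and 0.21 apart in CD8 cells, with a 90th percentile of 0.70 and 0.66. Socs3 differed by more than this between the labelled genotypes in both subsets. That spread covers the probes and not the animals, and the 3 probe sets of Socs3 measure the same RNA. Of 14496 probe sets above the floor on an array of the CD4 pair, 22 had a higher log2 difference than 1416576_at, and 31 of 14365 had one in the CD8 pair.

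Socs1, which blocks the kinase activity of JAKs, was near level on all arrays. Its probe set 1450446_a_at read 490.1 on the array labelled knockout CD4, 441 on wildtype CD4, 426 on knockout CD8 and 416 on wildtype CD8. Its log2 difference between the labelled genotypes was 0.15 in CD4 and 0.03 in CD8 cells. Both lie within the median disagreement between probe sets of a gene, and without replicates a small difference cannot be told from none.

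**Figure D1:**
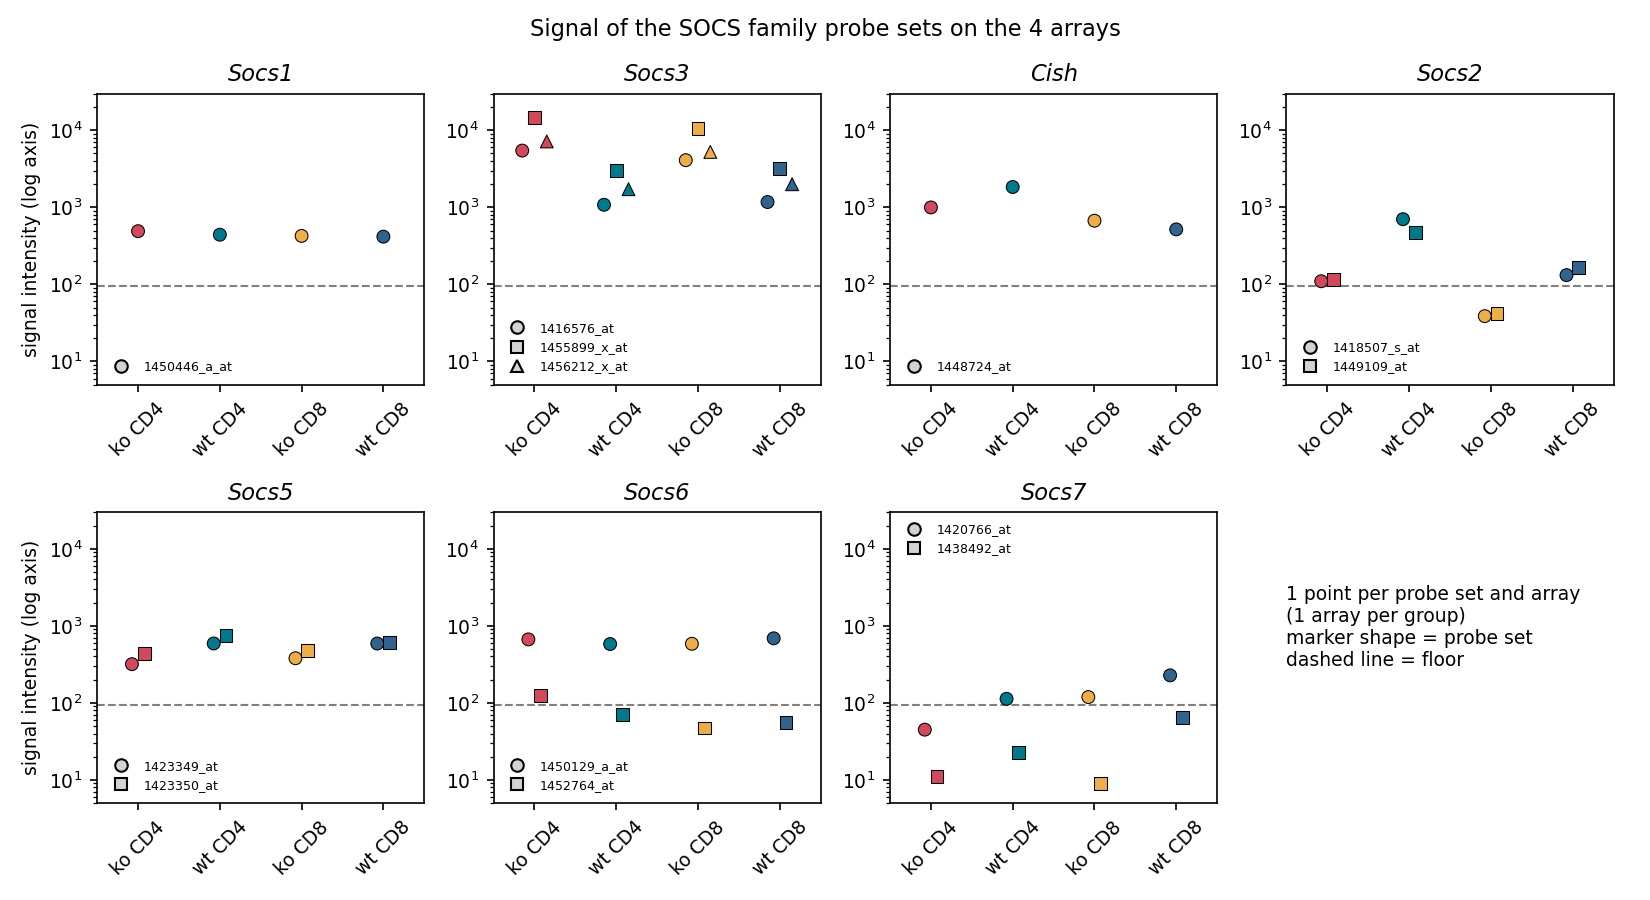
Signal intensity (log axis) of each SOCS family probe set on the arrays labelled knockout (ko) and wildtype (wt) CD4 and CD8, 1 array per group. Point shapes stand for probe sets and the dashed line for the floor of 93.9. Socs3 is higher on both arrays labelled knockout on all 3 probe sets, Socs2 is highest on the array labelled wildtype CD4, and Socs1 is nearly flat.

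Cish, a STAT5 target whose product also restrains signals of the T cell receptor in CD8 cells, was highest in CD4 cells labelled wildtype. Its probe set 1448724_at read 996 on the array labelled knockout CD4, 1835 on wildtype CD4, 670.0 on knockout CD8 and 517 on wildtype CD8. The labelled genotypes went opposite ways in the subsets: the knockout array was 1.84-fold lower in CD4 cells and 1.30-fold higher in CD8 cells. These are log2 differences of -0.88 and 0.37, and the CD8 value was within the 90th percentile of disagreement between probe sets. The array labelled wildtype CD4 was 3.55-fold above wildtype CD8, and the array labelled knockout CD4 1.49-fold above knockout CD8.

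Socs2, which restrains growth hormone signalling and is also induced through STAT5, was high on a single array. Probe set 1418507_s_at read 109.8 on the array labelled knockout CD4, 701 on wildtype CD4, 38.7 on knockout CD8 and 132 on wildtype CD8. Probe set 1449109_at read 116 and 474 in CD4 and 41.4 and 164 in CD8 cells, in the same order of arrays. The array labelled wildtype CD4 stood above the other 3 on both probe sets, and knockout CD8 lay below the floor of 93.9. In CD4 cells the array labelled knockout was 6.39-fold and 4.08-fold lower, log2 differences of -2.68 and -2.03 that became -0.64 and -0.08 with a floor at the 60th percentile. In CD8 cells the log2 differences were -0.49 and -0.80 or lower, bounds that the floor sets. Between the subsets, the array labelled wildtype CD8 was 5.32-fold and 2.90-fold below wildtype CD4.

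Beside Cish and Socs2, Il2ra was also highest on the array labelled wildtype CD4, whereas Il2rb was highest on wildtype CD8 (8128 against 6045 on wildtype CD4). Il2ra, the high-affinity IL-2 receptor chain, read 640.4 on the array labelled wildtype CD4 and 39.5 on knockout CD4, at least 6.82-fold lower. Both CD8 arrays had Il2ra below the floor. The part of cells with Il2ra in the signals of Cish and Socs2 was not tested, and in bulk arrays fewer cells of a type and less RNA per cell cannot be told apart.

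Socs5, which in mice acts on IL-4 receptor and epidermal growth factor receptor signalling, was lower on both arrays labelled knockout on both of its probe sets. Probe set 1423349_at read 318 and 589.9 on the knockout and wildtype arrays of CD4 cells and 379 and 589.3 on those of CD8 cells. Probe set 1423350_at read 439 and 755 in CD4 and 476 and 605 in CD8 cells. The arrays labelled knockout were the lowest pair on both. Log2 differences were -0.89 and -0.78 in CD4 and -0.64 and -0.34 in CD8 cells, below 2-fold in size throughout. The CD4 values passed the 90th percentile of disagreement between probe sets and the CD8 values did not. With arrays centred on their medians the CD4 values were -0.58 and -0.47, smaller in size than the 0.70 of that percentile before centring. With a floor at the 60th percentile 1423349_at was at -0.39 in CD4 cells.

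Socs6, which binds receptor tyrosine kinases such as KIT, was near level on its brighter probe set. Probe set 1450129_a_at read 667 on the array labelled knockout CD4, 580.5 on wildtype CD4, 584.5 on knockout CD8 and 688 on wildtype CD8. The order of the labelled genotypes was opposite in the subsets, with log2 differences of 0.20 and -0.24. Its other probe set, 1452764_at, lay above the floor on the array labelled knockout CD4 alone, at 125.

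Socs7, whose product binds signalling adaptors, was dim. Probe set 1420766_at read 44.9 on the array labelled knockout CD4, 113 on wildtype CD4, 119 on knockout CD8 and 228 on wildtype CD8. The highest signal was on the array labelled wildtype CD8, 1.91-fold above knockout CD8 and 2.02-fold above wildtype CD4. This is also the array with high dendritic cell genes, whose part in the signal was not tested. Probe set 1438492_at lay below the floor on all 4 arrays, so 12 of the 13 probe sets could be compared on at least 1 pair. Socs4, a family gene outside the 7, read 208 to 233 on probe set 1421273_at, with log2 differences of 0.07 in CD4 and 0.13 in CD8 cells. Its probe set 1421275_s_at had 0.20 in CD4 and -0.26 in CD8 cells, and 1421274_at lay below the floor on all 4 arrays.

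Counted together, the family did not move one way. Between the labelled genotypes in CD4 cells, 3 of 12 member probe sets above the floor were at least 2-fold higher on the array labelled knockout, all of Socs3, and 2 were as much lower, both of Socs2. Over all 14496 probe sets, 2.18% were at least 2-fold higher and 7.11% lower. In CD8 cells 3 of 11 were at least 2-fold higher, again those of Socs3, and 0 were lower, against 1.32% and 3.95% of 14365. Socs2 could not count as lower in CD8 cells, because its wildtype signals of 132 and 164 lay less than 2-fold above the floor of 93.9. With a floor at the 25th percentile its log2 differences there were -1.77 and -1.98. The median log2 difference of the members was -0.06 in CD4 and -0.24 in CD8 cells, beside -0.02 over all probe sets in each subset. Probe sets of a gene share their RNA, so at this floor the counts stand for 1 gene each way in CD4 and 1 gene in CD8 cells.

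**Figure D2:**
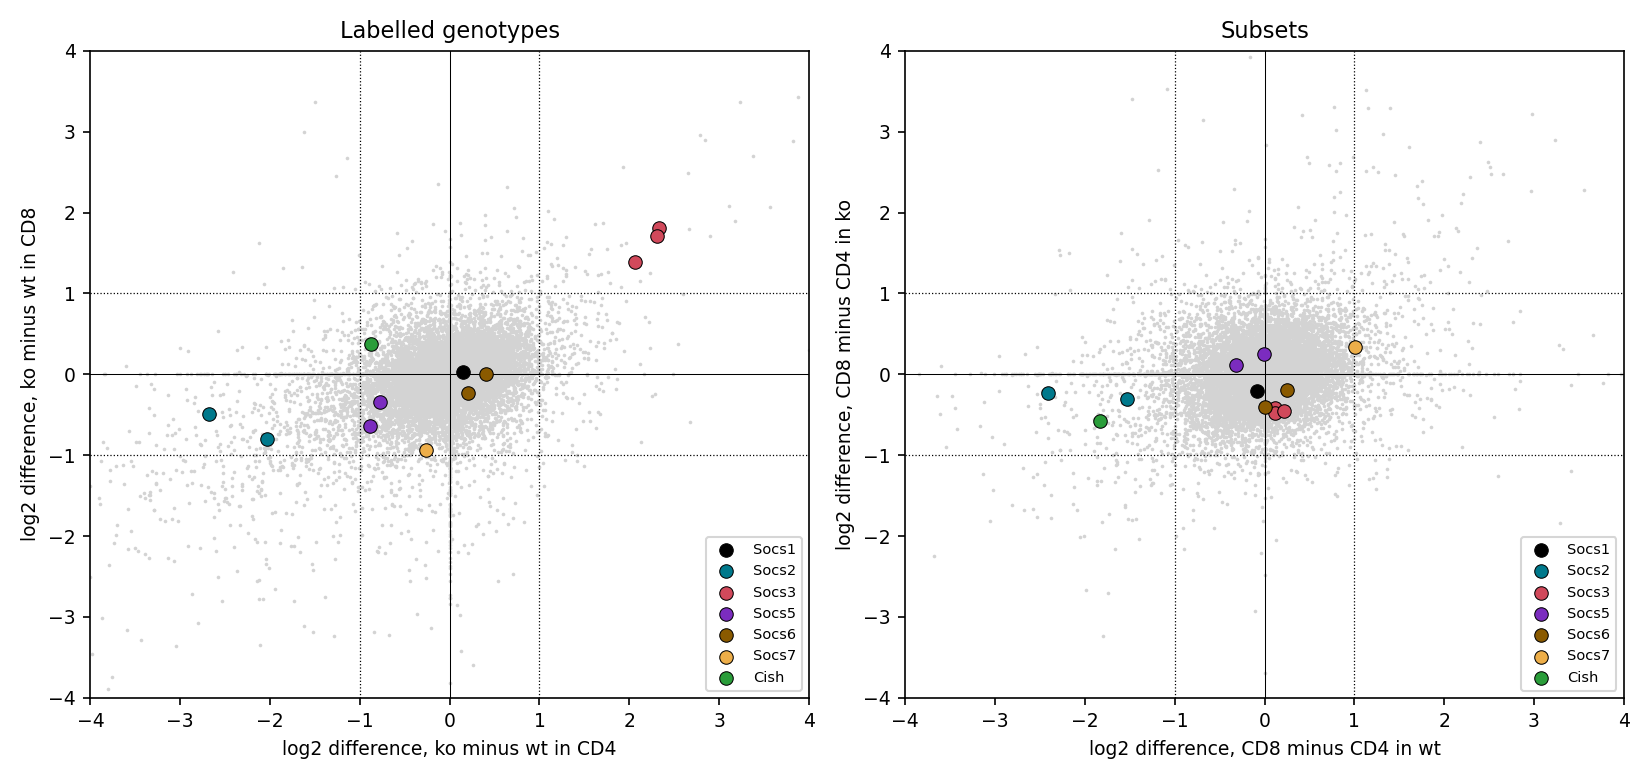
Log2 differences of the SOCS family probe sets (coloured) over all 15273 probe sets above the floor on at least 1 array (grey); the left panel sets the labelled genotypes in CD4 (x) against CD8 cells (y), the right panel the subsets on wildtype (x) against knockout arrays (y). Dotted lines mark 2-fold, and 51 probe sets on the left and 22 on the right lie beyond 4 on an axis and are not drawn. Socs3 lies past 2-fold on both axes on the left, Socs2 on the CD4 axis alone. On the left, the CD8 values of Socs2 are bounds that the floor sets.

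A limma fit of genotype label and subset over all 15273 probe sets called Socs3 and no other member. Its error joins the disagreement between the subsets, on 1 residual degree of freedom, with a prior spread from probe sets of like signal that has 6.10 degrees of freedom and so most of the weight. All 3 Socs3 probe sets rose on the arrays labelled knockout, by log2 2.07 ± 0.17 (SE; 1416576_at, adjusted p = 0.00396), 2.01 ± 0.17 (SE; 1455899_x_at, adjusted p = 0.00496) and 1.73 ± 0.18 (SE; 1456212_x_at, adjusted p = 0.0102). Each was higher on 2 of 2 pairs of arrays. The fit called 0.288% of all probe sets as higher and 0.851% as lower. For Socs2 limma gave an adjusted p of 0.223 (1418507_s_at) and 0.147 (1449109_at), which became 0.0237 and 0.0352 with log2 of the value plus 16 and 0.0395 for 1418507_s_at with a floor at the 25th percentile. It gave 0.310 (1423349_at) and 0.433 (1423350_at) for Socs5, 0.425 for Socs7, and for Cish, Socs1 and both Socs6 probe sets between 0.797 and 0.987. The Socs3 calls were lost without the trend in limma's prior (adjusted p = 0.103, 0.121 and 0.154), where 16 of all probe sets were called, and without the subset term (0.258, 0.258 and 0.327), where 0 were called. The adjusted p-values describe these 4 arrays and not a spread between animals.

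Between CD8 and CD4 cells, Socs2 and Cish were lower in CD8 cells on the arrays labelled wildtype. On that pair of arrays, 3 of 11 member probe sets were at least 2-fold lower in CD8 cells, both of Socs2 and that of Cish, and 1 of Socs7 was 2-fold higher. Of all 14780 probe sets 4.66% were at least 2-fold lower and 3.13% higher. On the arrays labelled knockout, 0 of 12 member probe sets were at least 2-fold lower or higher, against 1.41% and 1.89% of 13950. With a floor at the 25th percentile the knockout count became 4, among them Socs2 at -1.50 and -1.49. Socs3 had log2 differences from 0.12 to 0.21 on the arrays labelled wildtype and from -0.41 to -0.48 on those labelled knockout, all below 1.5-fold. Limma's subset term called 0 of 12 member probe sets, of which 4 had an unadjusted p below 0.05, against 9.23% of all probe sets; Cish came lowest (adjusted p = 0.241). It called 0.105% of all probe sets as lower and 0.216% as higher in CD8 cells. Each array enters a genotype pair and a subset pair, so these values are not independent of those above.

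The genes with the pattern most like Socs3 over the 4 arrays were Slpi, a secreted inhibitor of leukocyte proteases, Cnn3, which encodes a calponin, and Clec2d, a C-type lectin. Likeness was the Euclidean distance between log2 signals centred on their mean over 4 arrays, among 11165 named probe sets that passed the floor on every array. These 3 genes were the closest to each of the 3 Socs3 probe sets, at distances of 0.18 to 0.33 for Slpi, 0.31 to 0.49 for Cnn3 and 0.27 to 0.57 for Clec2d. Slpi read 842 and 224 on the knockout and wildtype arrays of CD4 cells and 684 and 225 on those of CD8 cells. Closest to Cish were Tnfrsf18, the costimulatory receptor GITR of regulatory and activated T cells (distance 0.15), Akap12, a kinase anchoring protein gene (0.23), and Cbx5, which encodes a heterochromatin protein (0.25). Tnfrsf18 read 3022 and 6095 in CD4 and 2117 and 1804 in CD8 cells.

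Upstream of the family, the kinases and STATs stayed within 2-fold between the labelled genotypes. Of 10 JAK and STAT genes on the array, 0 were 2-fold apart in either subset, where 2.06% of 8150 genes in CD4 and 1.21% of 8093 in CD8 cells were at least 2-fold higher and 7.73% and 4.29% lower. Their median log2 difference was 0.01 in CD4 and -0.05 in CD8 cells, beside -0.02 over all genes in each. Jak2 and Tyk2, kinases of the receptors for interferons and IL-12, were lower on the arrays labelled knockout, with log2 differences of -0.69 and -0.65 in CD4 and -0.37 and -0.62 in CD8 cells. Stat4, the STAT of IL-12, had -0.14 and -0.38. Limma called 0 of the 10.

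Among the cytokine receptor genes differences past 2-fold went both ways. Of 18 above the floor in CD4 cells, 2 were at least 2-fold higher and 5 as much lower on the array labelled knockout; in CD8 cells these were 1 and 2 of 16. Beside these counts, the background of every gene above the floor had 2.06% past 2-fold upwards and 7.73% downwards in CD4 cells. In CD8 cells this background was 1.21% and 4.29%. The receptor medians were -0.06 and -0.23. Limma called 1 of 19, Il2rb, the chain shared by the IL-2 and IL-15 receptors, which fell (by 8.98-fold in CD4 cells and by 3.53-fold in CD8 cells; adjusted p = 0.0144). Of all probe sets, limma called 0.288% as higher and 0.851% as lower. Il2rb is also one of the memory and effector genes. Ifngr2, a chain of the interferon gamma receptor, was 3.91-fold and 3.07-fold higher and missed the threshold (adjusted p = 0.0531); its other probe set had the opposite sign in CD4 cells.

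Genes known as STAT targets did not share a direction. Of 15, 3 were at least 2-fold higher and 3 lower on the array labelled knockout in CD4 cells. In CD8 cells 2 were higher and 2 lower. Medians were 0.32 and 0.11. Over all genes, the shares were 2.06% higher and 7.73% lower in CD4 cells, and 1.21% and 4.29% in CD8 cells. Limma called Gbp2, an interferon-induced GTPase gene chosen after its value was seen, as higher (by 1.77-fold in CD4 cells and by 2.20-fold in CD8 cells; adjusted p = 0.0319). It called Irf8, a transcription factor gene of interferon responses and of dendritic cells, as lower (3.07-fold and 8.64-fold, adjusted p = 0.0401). Irf8 read 2672 on the array labelled wildtype CD8, the array with high dendritic cell genes, and 912 on wildtype CD4. Pim2, a survival kinase gene, had log2 differences of 1.65 and 0.59 (adjusted p = 0.0854), and Gadd45g, a stress and cytokine response gene, 1.05 and 1.56 (adjusted p = 0.0626).

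**Figure D3:**
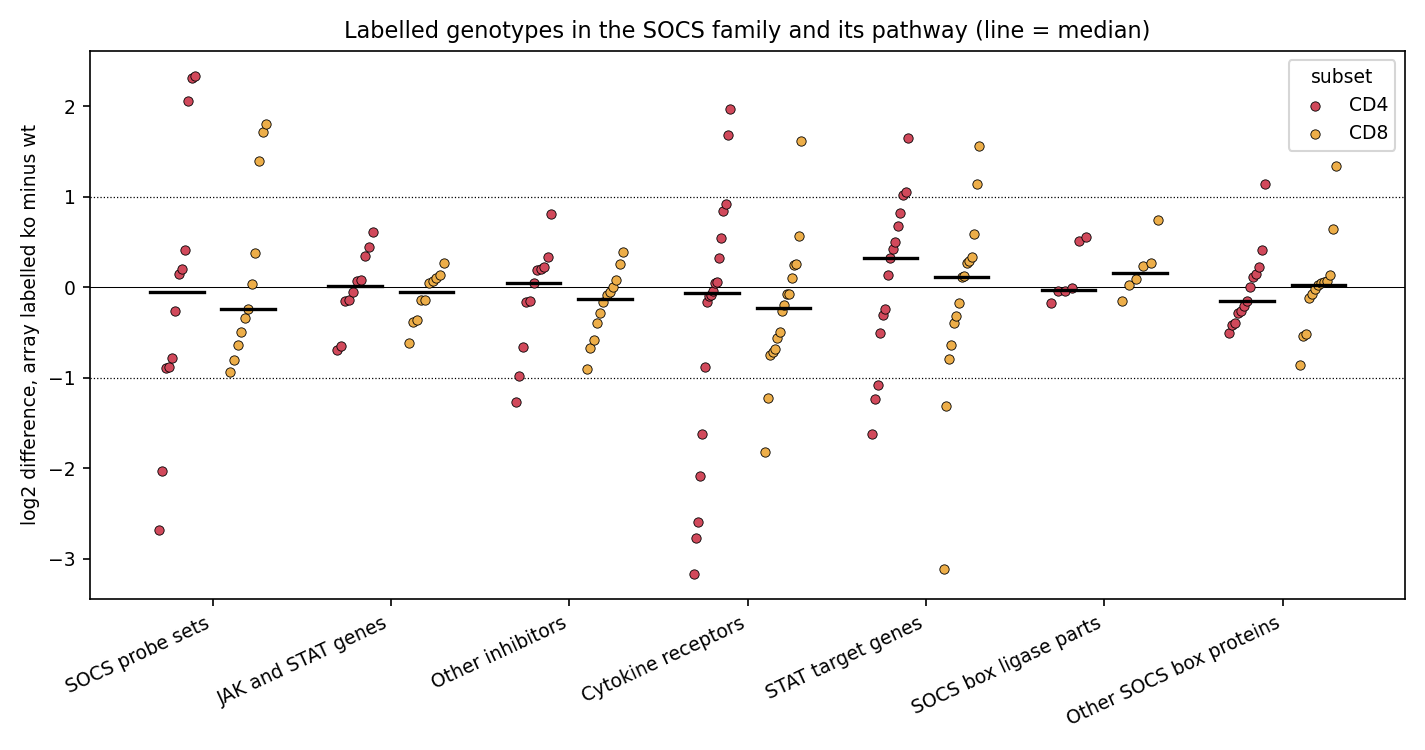
Log2 difference (array labelled knockout minus wildtype) in CD4 and CD8 cells for the SOCS family probe sets and for the genes of 6 lists around them; each point is a probe set (SOCS) or a gene (lists) above the floor on at least 1 array of the pair, and lines are medians. JAK and STAT genes stay within the dotted lines at 2-fold. SOCS probe sets pass them both ways in CD4 cells and upwards alone in CD8 cells, where the floor bounds the Socs2 values. Cytokine receptor genes pass them both ways in both subsets.

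The ligase parts that SOCS proteins recruit and the other inhibitors of the pathway seldom passed 2-fold, as was true of genes in general. Taken over every gene above the floor, the shares past 2-fold in CD4 cells were 2.06% upwards and 7.73% downwards on the array labelled knockout. In CD8 cells they were 1.21% and 4.29%. Whether the lists below depart from those shares was not tested. Of 6 genes of the SOCS box ligase, 0 were 2-fold apart in either subset, with medians of -0.03 and 0.16. Rnf7, its RING finger subunit, had log2 differences of 0.56 and 0.75 (limma adjusted p = 0.0743), with the opposite sign on its other probe set in both subsets. Nedd8, which activates cullins, had 0.51 and 0.23, and Cul2, a cullin of related ligases, -0.04 and 0.27. Of other inhibitors of JAK and STAT signalling, 1 of 11 above the floor was at least 2-fold lower in CD4 cells, Ptpn11, which encodes the phosphatase SHP-2 (log2 -1.27), and 0 of 12 were 2-fold apart in CD8 cells. Another Ptpn11 probe set had the opposite sign in CD4 cells. Pias3, an inhibitor of STAT3 that is known to bind Gfi1, had -0.98 and -0.67, and Sh2b3, the adaptor LNK, -0.66 and -0.91. Of 13 other genes with a SOCS box above the floor, 1 was at least 2-fold higher in each subset: Spsb1, an adaptor of ubiquitin ligases, at 1.14 and 1.34, while another of its probe sets had the opposite sign in CD8 cells. Spsb2, its relative, had log2 differences of -0.50 and -0.54, and Vhl, the von Hippel-Lindau tumour suppressor gene, 0.00 and -0.85. Limma called 0 genes of these 3 lists, where 0.288% of all probe sets were called higher and 0.851% lower; at an unadjusted p under 0.05 there were 6 of 32, beside 13.4% of all probe sets.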

How the data were processed

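The authors deposited linear signal intensities per probe set, 1 column per array. GCOS 1.4 and MAS5 made them, per the submitters' processing notes; other steps are not given there. Each array had a 2% trimmed mean between 1000.4 and 1000.5, so the deposited values appear scaled to a common level. Of 22690 probe sets, 64 controls were left out. The platform annotation lists 1 symbol for 20380, several for 691 (not used) and none for 1555; 20351 matched a RefSeq gene and took its current symbol.

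Signals below the 40th percentile of all values (93.9) were set to this floor before log2, and no fold is given with both arrays at it. Arrays kept 58.4% to 61.6% of probe sets above the floor, with medians from 189 to 235 and pairwise Pearson correlations of 0.944 to 0.974 over 12162 probe sets above it on all arrays. The number of arrays limits the precision. Pairs of arrays have no test; a difference of 2-fold is counted. In R 4.3.3, limma 3.58.1 (lmFit, then eBayes with a trend and 6.10 prior degrees of freedom) fitted genotype label and subset on log2 values, with Benjamini-Hochberg adjustment over all probe sets and a threshold of 0.05. On simulated data it recovered most larger changes but missed at least as many 2-fold changes as it recovered. False calls ran above the nominal share for the genotype term and below it for the subset term. A gene of a list was shown by its probe set with the highest mean; named are up to 4 members per list, those with the largest difference in each subset. Members, lists and rules were chosen with earlier results of these data known. The other steps ran in Python 3.11.15 with pandas 2.3.3 and numpy 2.4.6, and plots in matplotlib 3.10.9. The alternatives were the floor, a pseudocount, 2 scalings, the probe sets kept, 1.5-fold, limma's trend, the filter and the terms.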

Additional observations from a re-analysis of the deposited data

Results flagged for a closer look

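For 2 members the labelled genotypes went opposite ways in the subsets, and this difference was not tested, since each subset has 1 pair of arrays. The log2 difference of Cish (1448724_at) was -0.88 in CD4 and 0.37 in CD8 cells. That of Socs6 (1450129_a_at) was 0.20 in CD4 and -0.24 in CD8 cells, within the 90th percentile of disagreement between probe sets of a gene. With arrays centred on their medians, Cish had -0.57 in CD4 and 0.59 in CD8 cells. Socs6 then had 0.51 in CD4 and -0.02 in CD8 cells.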

How the results depend on the processing

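Of 292 recomputed log2 differences of members, 0 at 2-fold changed sign and 25 moved by 1.5-fold or more. Centring arrays on their medians moved the median of all probe sets to 0.33 in CD4 and 0.21 in CD8 genotype pairs; Socs3 stayed higher and Socs2 (both probe sets) lower. Member probe sets at least 2-fold apart numbered 5 between genotypes in CD4 cells, 3 in CD8 cells, 4 between subsets on wildtype arrays and 0 on knockout arrays. A floor at the 60th percentile gave 3 in CD4 cells and 1 between subsets on wildtype arrays, with the Socs2 differences in CD4 cells at -0.64 and -0.08. A floor at the 25th percentile gave 5 in CD8 cells and 4 between subsets on knockout arrays, and log2 of the value plus 16 gave 6 and 4. Without multi-transcript probe sets there were 2 in CD4 and 1 in CD8 cells, and at 1.5-fold 8 and 6. Limma's genotype term called 3 member probe sets; it called 5 with the pseudocount (the added ones of Socs2), 1 without multi-transcript probe sets, 0 without the trend and 0 without the subset term. Its subset term called 0, but 1 (Cish) with the lower floor, with the pseudocount and with the filter that needs all 4 arrays above the floor. Over all probe sets the genotype calls, 174, ranged from 0 to 689. After quantile normalization limma called 2 Socs3 probe sets, and 1456212_x_at had an adjusted p of 0.0769. The cause of these changes was not tested, except that the probe set filter removes members. Low signal limits Socs2, Socs6 (1452764_at) and Socs7. No paired analysis was possible because each group has 1 array and the labels pair none; the subset term is the only block.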
